A study of Mus musculus with 12 samples.

Results

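The collagen chain genes are the protein-coding genes whose symbol reads Col, a type number, a and a chain number. By this rule 44 genes were found among the 56647 gene rows that held a value in every library, 21829 of them protein-coding. They comprise 11 genes of fibrillar collagens, 6 of type IV collagen, the collagen of basement membranes, and 27 of other types. RNA from the myocardium of wild-type mice was sequenced from transcript 3′ ends, with libraries made by an adapted form of CEL-Seq2. The ligated groups were 4 mice with left coronary ligation and local delivery of NECA into the infarcted myocardium and 3 mice with left coronary ligation alone (MI). They were set against 3 mice labelled both Vehicle-treated and Sham. NECA, 5'-(N-ethylcarboxamido)adenosine, is an adenosine analogue that activates adenosine receptors. The labels name no vehicle delivery for the MI mice, so NECA and its delivery cannot be told apart in NECA-treated MI against MI mice. They give no age, sex or time after ligation in the sources used here.

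Collagens are triple helices of 3 chains. Fibrillar collagens, mainly types I and III in the heart, are made by fibroblasts and form the fibres that carry tension and that build up in an infarct scar. Type IV collagen forms a sheet-like network in the basement membranes around cardiomyocytes and capillaries, and the other types bind fibrils, form fine filaments or span the cell membrane.

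Levels are counts per 1000000 counts of a library (CPM), with library sizes scaled by the trimmed mean of M values. MI mice 2 and 3 had 1st libraries of 30745429 and 27130817 counts and 2nd libraries of 971760 and 959840 counts. The other 8 mice had 1 library each, and these 10 smaller libraries held 959840 to 1330259 counts. The libraries of a mouse were summed, so its value follows the 1st library, and values from the 2nd libraries, which have the depth of the other mice, are given beside the results as within-batch values. The batch here means only libraries of like depth, since the labels say no more than 1st and 2nd. The cardiomyocyte gene Myh6 was at least 15400 CPM in every mouse, and all 9 cardiomyocyte markers were detected. Sham vehicle mouse 3 stood apart with 734 CPM of the atrial myosin gene Myl7, against at most 0.894 CPM in any other mouse. MI mouse 3 stood apart with the lowest summed cardiomyocyte markers (42860 CPM, against 52730 to 77290 CPM in the other 9 mice). Fits without MI mouse 3 are given beside most fold changes that rest on it, and fits without sham vehicle mouse 3 beside some collagen results. In tissue RNA, fewer cells of a type and less RNA per cell cannot be told apart.

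RefSeq promoter windows (GRCm38.p6, 250 bases before to 50 after a gene's start) were at hand for 35 of the 44 genes. Col4a1 and Col4a2, whose levels ran in parallel in these mice, lie head to head on chromosome 8 with starts 21 bases apart, and their windows share 78 bases. The plus-strand stretch across both starts (chr8:11312801-11312830) is shown because it holds the first base of each gene. Col4a2 starts at the left and is read to the right, and Col4a1 starts at the right and is read to the left. By these starts each gene is thus read past the start of the other. Capitals mark the first base of Col4a2 and, on the other strand, that of Col4a1.
Col4a1-Col4a2: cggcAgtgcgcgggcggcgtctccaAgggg
The CCAAT motif was searched on both strands (CCAAT or ATTGG) in these windows. It was found for 13 of the 35 genes (37.1%), against 41.1% of all 27025 genes with a window: 3 of 8 fibrillar, 3 of 5 type IV and 7 of 22 other genes. The matches in Col1a2, a fibrillar gene with one of the widest spreads here, and in the type IV pair, which spread little, are shown 5′ to 3′ along each gene's own strand. They lie at chr6:4505497-4505525 (plus strand), chr8:11312955-11312983 (minus strand) and chr8:11312761-11312789 (plus strand), with the motif in capitals. The Col1a2 window held a further match on the opposite strand at the gene's first base, which is not shown.
Col1a2: aaaagaatggaaCCAATttaagaagcccc
Col4a1: tgcttgcccgggATTGGcgagccaagggg
Col4a2: ccgaggagctccCCAATttgttggcgctg
A match describes the letters only.

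Across the 10 mice the summed level varied most for the fibrillar genes. Their summed level was 1932, 3898, 2278 and 1043 CPM in NECA-treated MI mice 1 to 4, 1421, 766 and 8822 CPM in MI mice 1 to 3, and 372, 413 and 1017 CPM in sham vehicle mice 1 to 3. All 4 NECA-treated MI mice lay above the sham vehicle mice, narrowly for mouse 4, whereas MI mouse 2 lay below sham vehicle mouse 3. Relative to library totals without scaling, NECA-treated MI mouse 4 had 994 CPM and sham vehicle mouse 3 had 1088 CPM, so these groups then overlapped. The 6 type IV genes summed to 653, 860, 708 and 682 CPM in NECA-treated MI mice, 801, 419 and 1287 CPM in MI mice, and 846, 945 and 689 CPM in sham vehicle mice. Here the groups overlapped, and the MI mice held both the lowest and the highest value. In its 2nd library MI mouse 2 had 663 CPM of type IV transcripts. The 27 other genes summed to 573, 853, 493 and 399 CPM in NECA-treated MI mice, 544, 319 and 1565 CPM in MI mice, and 275, 252 and 509 CPM in sham vehicle mice. MI mouse 3 was again the highest.

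**Figure D1:**
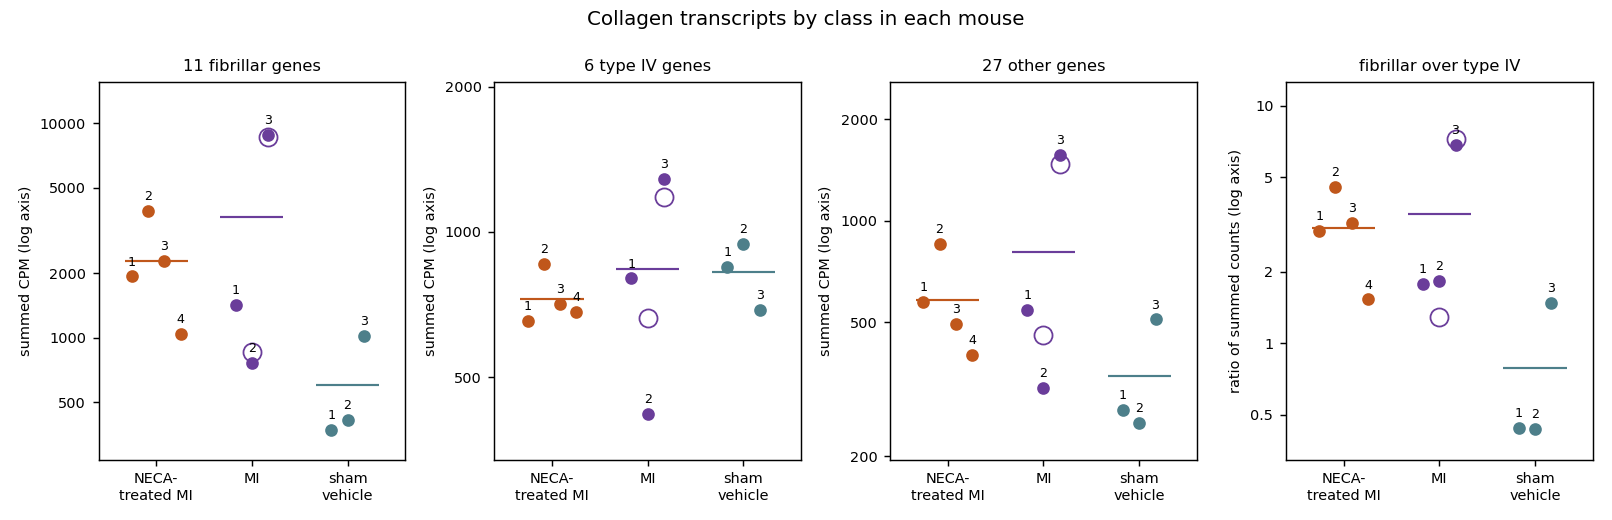
Summed CPM of the 11 fibrillar, 6 type IV and 27 other collagen genes, and the ratio of fibrillar to type IV counts, in each mouse (log axes). Filled points are mice, numbered, with libraries summed, horizontal lines are group means, and open circles are the 2nd libraries of MI mice 2 and 3. MI mouse 3 is highest in every panel, at 8822 CPM of fibrillar transcripts, and sham vehicle mice 1 and 2 have the lowest ratios, 0.440 and 0.437.

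The balance between the classes differed between mice more than the type IV level itself. Fibrillar counts were 2.96, 4.53, 3.22 and 1.53 times the type IV counts in NECA-treated MI mice and 1.78, 1.83 and 6.86 times in MI mice. They were 0.440, 0.437 and 1.48 times the type IV counts in sham vehicle mice. Every ligated mouse thus had more fibrillar than type IV counts, as did sham vehicle mouse 3, the mouse with atrial transcripts. The 2nd library of MI mouse 2 gave 1.29, below sham vehicle mouse 3.

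Per transcript length (TPM, from the authors' deposited log2 values), the order of the leading genes differed between groups. Such a scale assumes reads along the whole transcript, which 3′ counting does not give. In NECA-treated MI mice Col3a1 led at 212 ± 134 TPM, before Col1a2 at 95.8 ± 55.0, Col1a1 at 78.8 ± 55.9 and Col4a1 at 64.7 ± 20.8 TPM (SD, n = 4). In MI mice the same 4 genes led, Col3a1 at 456 ± 566 TPM and Col4a1 at 85.2 ± 35.4 TPM (SD, n = 3). In sham vehicle mice Col4a1 led at 67.7 ± 13.1 TPM, before Col3a1 at 55.6 ± 54.1, Col4a2 at 44.7 ± 3.90 and Col1a2 at 22.1 ± 16.8 TPM (SD, n = 3). Each of these neighbours differed by less than the larger of their SDs, other than Col4a2 and Col1a2 in sham vehicle mice.

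Type III collagen, a single-chain fibrillar collagen of pliable tissues, had the highest CPM of the family averaged over the 10 mice, while Col4a1 and Col4a2 averaged above it in the sham vehicle mice. Col3a1 was 997, 1635, 944 and 484 CPM in NECA-treated MI mice, 764, 394 and 4014 CPM in MI mice, and 133, 150 and 485 CPM in sham vehicle mice. Sham vehicle mouse 3 lay level with NECA-treated MI mouse 4, so these groups met. In the MI group 1 mouse was above all the others and mouse 2 was below sham vehicle mouse 3.

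The chains of type I collagen, the main fibre of scars, were likewise highest in MI mouse 3, followed by NECA-treated MI mouse 2. Col1a1 was 309, 907, 519 and 188 CPM in NECA-treated MI mice, 203, 86.7 and 1977 CPM in MI mice, and 73.7, 92.6 and 180 CPM in sham vehicle mice. Col1a2 was 404, 910, 590 and 221 CPM in NECA-treated MI mice, 295, 181 and 2055 CPM in MI mice, and 78.6, 87.7 and 198 CPM in sham vehicle mice. For both genes every NECA-treated MI mouse was above every sham vehicle mouse on this scale. The margin was small: relative to library totals without scaling, NECA-treated MI mouse 4 and sham vehicle mouse 3 overlapped for both. The count of Col1a1 over that of Col1a2 ran from 0.479 in MI mouse 2 to 1.06 in sham vehicle mouse 2, a 2.20-fold range.

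**Figure D2:**
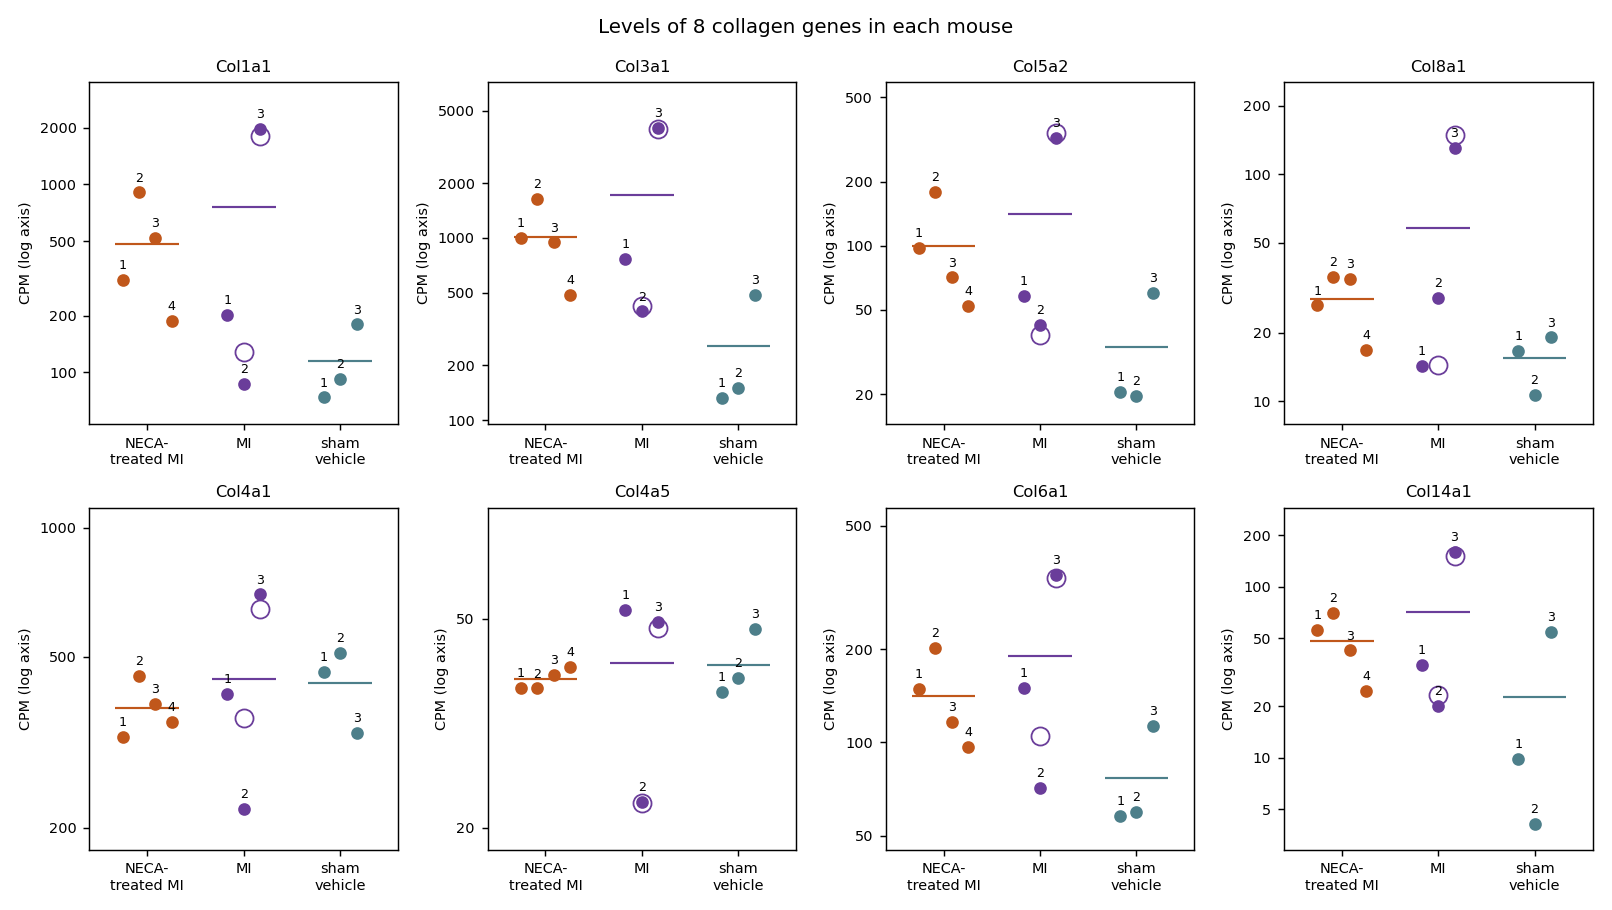
CPM (log axes) of 8 collagen genes in each mouse, with libraries summed (filled, numbered), the 2nd libraries of MI mice 2 and 3 (open circles) and group means (lines). Col1a1, Col3a1, Col5a2, Col8a1, Col6a1 and Col14a1 are highest in MI mouse 3, for Col3a1 at 4014 CPM, while Col4a5 spans 22.4 to 51.9 CPM with MI mouse 1 highest.

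Type V collagen joins type I in mixed fibrils and takes part in starting them. Col5a1 was 87.4, 195, 108 and 74.1 CPM in NECA-treated MI mice, 71.5, 42.5 and 337 CPM in MI mice, and 36.3, 37.7 and 57.3 CPM in sham vehicle mice. NECA-treated MI and sham vehicle mice did not overlap for Col5a1, with or without scaling, and MI mouse 2 again fell inside the sham vehicle range. Col5a2 was 97.8, 179, 71.1 and 52.3 CPM in NECA-treated MI mice, 58.1, 42.3 and 323 CPM in MI mice, and 20.6, 19.7 and 60.3 CPM in sham vehicle mice. Sham vehicle mouse 3 overlapped both ligated groups there. Col5a3 was 20.8, 47.8, 26.9 and 11.9 CPM in NECA-treated MI mice, 21.5, 12.3 and 69.3 CPM in MI mice, and 21.6, 19.7 and 24.3 CPM in sham vehicle mice. In Col5a3 the sham vehicle mice lay within the range of both other groups.

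Type IV collagen gave a different picture. Col4a1 and Col4a2 encode the chains found in nearly all basement membranes. Col4a1 was 325, 451, 388 and 354 CPM in NECA-treated MI mice, 409, 221 and 699 CPM in MI mice, and 461, 510 and 332 CPM in sham vehicle mice. Col4a2 was 269, 357, 268 and 274 CPM in NECA-treated MI mice, 324, 164 and 513 CPM in MI mice, and 339, 381 and 281 CPM in sham vehicle mice. The pair held its proportion, Col4a1 over Col4a2 ranging from 1.18 to 1.45 in the 10 mice, a 1.23-fold range against 3.16-fold for Col4a1 alone. Sham vehicle mouse 3, high for fibrillar genes within its group, was the lowest of its group for both on this scale. Relative to library totals without scaling, it was the lowest for Col4a1 only. There Col4a2 was 296, 350 and 300 CPM in sham vehicle mice 1 to 3. MI mouse 2 depended on the library: relative to library totals without scaling, Col4a1 was 194 CPM in its 1st and 332 CPM in its 2nd library.

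That difference reached beyond the pair. In MI mouse 2 all 4 named type IV genes were lower in the 1st than in the 2nd library (median ratio 0.651), and 16 of the 20 named collagen genes were (median 0.683), whereas 9662 tested genes with counts in both had a median ratio of 0.980. In MI mouse 3 the median ratio of the named collagen genes was 1.14, against 1.05 over the tested genes. The part of depth or library in these ratios was not tested.

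The remaining type IV chains belong to specialised basement membranes and were low. Col4a5 was 36.9, 36.8, 39.0 and 40.5 CPM in NECA-treated MI mice, 51.9, 22.4 and 49.3 CPM in MI mice, and 36.3, 38.5 and 47.8 CPM in sham vehicle mice. Col4a4 was 12.02, 6.27, 7.80 and 9.88 CPM in NECA-treated MI mice, 8.04, 8.30 and 13.8 CPM in MI mice, and 6.87, 12.3 and 15.4 CPM in sham vehicle mice. In both genes all 3 groups overlapped. Col4a3 and Col4a6, which neighbour Col4a4 and Col4a5 head to head, were under 10 CPM in every mouse.

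Type VI collagen forms beaded filaments between fibres and cells. Col6a1 was 149, 201, 116 and 96.8 CPM in NECA-treated MI mice, 150, 71.4 and 348 CPM in MI mice, and 57.9, 59.8 and 113 CPM in sham vehicle mice. Col6a2, its tandem neighbour, was 138, 181, 112 and 93.8 CPM in NECA-treated MI mice, 128, 65.5 and 321 CPM in MI mice, and 63.8, 65.6 and 116 CPM in sham vehicle mice. These chains ran side by side, Col6a1 over Col6a2 ranging from 0.908 to 1.18. The ratio was 1.03 to 1.11 in the NECA-treated MI mice and 1.08 to 1.18 in the MI mice, against 0.908 to 0.975 in the sham vehicle mice. In its 2nd library MI mouse 2 gave 1.01. These ratios rest on few counts in the smaller libraries, such as 59 and 65 in sham vehicle mouse 1, 154 and 158 in sham vehicle mouse 3, and 98 and 95 in NECA-treated MI mouse 4. Several such ratios were taken, the share of other gene pairs with such a gap was not taken, and the difference was not tested.

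The third main chain, Col6a3, was 52.9, 122, 44.2 and 36.5 CPM in NECA-treated MI mice, 42.9, 29.0 and 168 CPM in MI mice, and 25.5, 16.4 and 47.8 CPM in sham vehicle mice. It overlapped between all groups through sham vehicle mouse 3. Col6a6, a further type VI chain, was at 15.2, 18.02, 11.3 and 16.8 CPM in NECA-treated MI mice, 18.8, 9.74 and 10.5 CPM in MI mice, and 4.91, 11.5 and 9.55 CPM in sham vehicle mice. Its highest value was in MI mouse 1, and MI mouse 3 lay near the middle.

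Type VIII collagen forms short-chain networks in vessel walls. Col8a1 was 26.5, 35.3, 34.7 and 16.8 CPM in NECA-treated MI mice, 14.3, 28.5 and 131 CPM in MI mice, and 16.7, 10.7 and 19.1 CPM in sham vehicle mice. Apart from MI mouse 3 the 3 groups overlapped. Here MI mouse 2 also depended on the library, with 14.5 CPM in the 2nd.

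Types XII, XIV and XVI attach to the surface of fibrils. Col14a1 was 56.1, 70.5, 42.5 and 24.7 CPM in NECA-treated MI mice, 34.9, 20.01 and 160 CPM in MI mice, and 9.82, 4.10 and 54.4 CPM in sham vehicle mice. Sham vehicle mouse 3 was over 5 times its group mates, the widest gap of its group among the named genes. Col16a1 was 29.7, 40.8, 19.9 and 19.8 CPM in NECA-treated MI mice, 21.5, 13.8 and 91.1 CPM in MI mice, and 11.8, 5.74 and 16.2 CPM in sham vehicle mice. NECA-treated MI and sham vehicle mice did not overlap there, with or without scaling. Col12a1 was 2.40, 24.3, 8.67 and 0.988 CPM in NECA-treated MI mice, 0.894, 3.52 and 28.1 CPM in MI mice, and 0.982, 1.64 and 4.41 CPM in sham vehicle mice. It was above 10 CPM in NECA-treated MI mouse 2 and MI mouse 3, and was too low to be tested within the batch.

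Types XV and XVIII sit at the outer face of basement membranes, and the end of the type XVIII chain is released as endostatin. Col15a1 was 68.9, 108, 76.3 and 64.2 CPM in NECA-treated MI mice, 74.2, 57.6 and 213 CPM in MI mice, and 67.8, 55.7 and 85.2 CPM in sham vehicle mice. Col18a1 was 20.04, 25.1, 13.9 and 14.8 CPM in NECA-treated MI mice, 29.5, 9.71 and 36.0 CPM in MI mice, and 5.89, 9.83 and 27.9 CPM in sham vehicle mice. Both overlapped between all groups.

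The 23 remaining genes did not pass the filter on low counts and carry no test. They comprise 4 fibrillar, 2 type IV and 17 other genes, and 22 of them were at most 20 CPM in every mouse. The exception was Col8a2, the partner chain of Col8a1, at 31.5 CPM in MI mouse 3 (29.1 CPM in its 2nd library) and at most 4.70 CPM elsewhere. The minor fibrillar genes Col11a1 and Col24a1 were 9.02 and 8.81 CPM in MI mouse 3. Col24a1 also reached 8.62 CPM in NECA-treated MI mouse 2, and no library of the sham vehicle mice held a count of either gene. Over that group a count of 0 allows up to 0.796 CPM (3 counts, counting error only). In all, 10 of the 23 had no count in sham vehicle mice, and 6, among them the cartilage genes Col2a1, Col9a1 and Col10a1, stayed under 1 CPM in every mouse. The detection of rare genes differed in depth between the deep 1st libraries and the rest, and these genes were picked for their values.

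**Figure D3:**
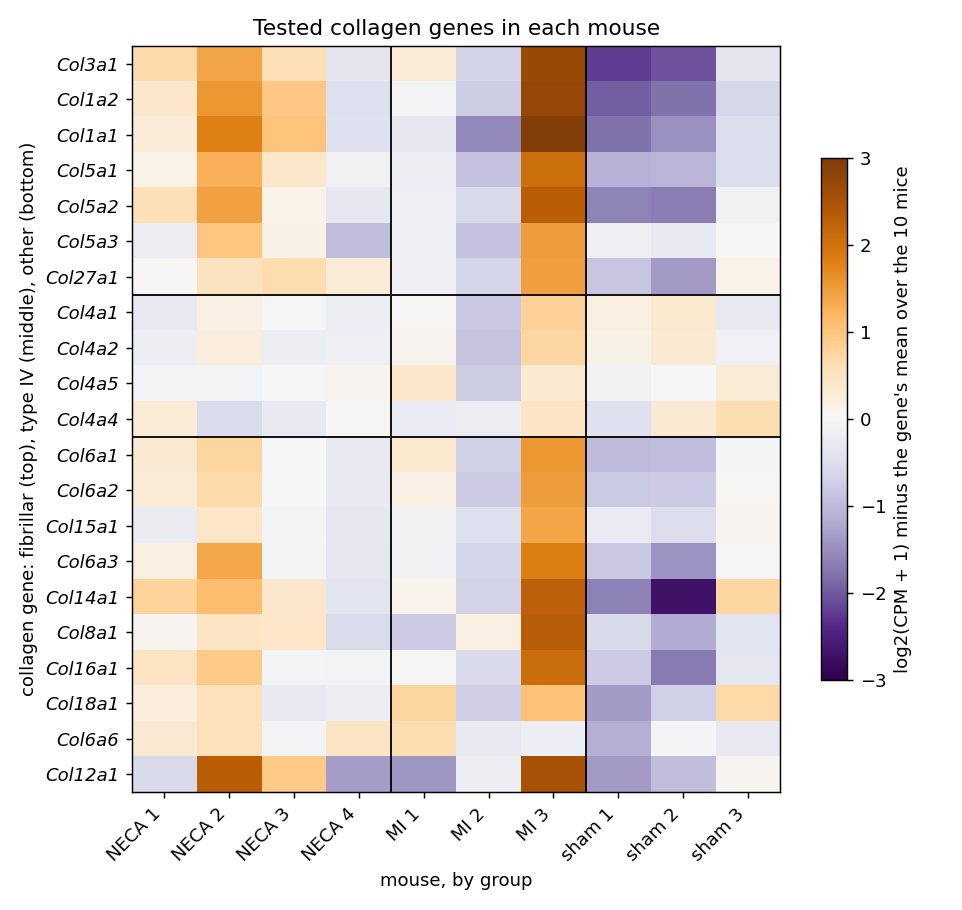
The 21 tested collagen genes (fibrillar at the top, type IV in the middle, others at the bottom) in each mouse, as log2(CPM + 1) minus the gene's mean over the 10 mice, so orange is above and purple below that mean. The MI mouse 3 column is orange for most genes, sham vehicle mice 1 and 2 are purple for fibrillar genes, and the type IV block is pale throughout.

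Individual mice carried much of this variation. MI mouse 3 was the highest of the 10 mice for 18 of the 21 tested collagen genes, against 12.8% of all 9688 tested genes, and within the batch for 16 of 20, against 20.1%. NECA-treated MI mouse 2 was the highest of its group for 18 of 21 (25.8% of all tested genes), and so was sham vehicle mouse 3 (36.7%). The exceptions in the sham vehicle group were type IV and VI genes, including Col4a1 and Col4a2.

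Whether NECA-treated MI mice differed from MI mice in collagen transcripts was the comparison closest to the study's title. None of the 21 tested genes passed edgeR's quasi-likelihood test at an adjusted p of 0.05, where 0.0103% of all tested genes did. By edgeR's unadjusted p none was under 0.05, where 5.7% of all tested genes were higher and 5.24% lower at that p, and limma on log2(TPM + 1) also called none, nor did DESeq2, which left 10 of the 21 without an adjusted p. The log2 fold changes were negative for 20 of 21 genes, with a median of -0.40, against -0.02 over all tested genes. The median was -0.53 for fibrillar, -0.21 for type IV and -0.43 for the other tested genes. Without MI mouse 3 and with libraries summed, the direction turned: the median was 0.65 and no tested collagen gene was negative. Within the batch the median was -0.47, and 0.40 there without MI mouse 3. In that last fit 7 of 22 genes were negative: 0 of 7 fibrillar, 3 of 4 type IV (median -0.018) and 4 of 11 others.

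For single genes the standard errors were of the size of the differences. Col1a1 averaged 481 ± 315 CPM in NECA-treated MI mice (SD, n = 4) and 756 ± 1059 CPM in MI mice (SD, n = 3), with a fitted log2 difference of -0.66 ± 1.06 (SE; adjusted p = 0.859, edgeR). Without MI mouse 3 it was 1.77. For Col3a1 the log2 fold change was -0.77 ± 0.87 (adjusted p = 0.794, edgeR), and 0.82 without that mouse. Col8a1 had the most negative value, -1.11 ± 0.70 (adjusted p = 0.590, edgeR), and 0.27 without that mouse. Col4a1 was at -0.22 ± 0.30 (adjusted p = 0.817, edgeR). Col6a6, the gene with a positive value, was at 0.37 ± 0.31 (adjusted p = 0.691, edgeR). No tested collagen gene had groups that did not overlap, where 4.96% of all tested genes were wholly higher and 4.16% wholly lower in NECA-treated MI mice.

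Ligation was examined in MI against sham vehicle mice. The labels name a vehicle for the sham mice and none for the MI mice, so ligation and vehicle cannot be told apart there. None of the 21 genes passed edgeR's test, where 0.155% of all tested genes did, and limma called none, nor did DESeq2, which left 5 of the 21 without an adjusted p. The log2 fold changes were positive for 19 of 21 genes, with a median of 1.30 against 0.005 over all tested genes. By class the median was 2.08 for fibrillar (7 of 7 positive), -0.02 for type IV (2 of 4 positive) and 1.38 for the other tested genes (10 of 10 positive). At an unadjusted p under 0.05 in edgeR there were 4 genes, Col1a2, Col3a1, Col8a1 and Col16a1, all higher in MI mice, where 7.31% of all tested genes were. Within the batch 5 genes had such a p, Col1a2, Col3a1, Col6a1, Col6a2 and Col27a1 (6.19% of all tested genes). DESeq2 had 9 genes at that p, all higher in MI mice, where 5.55% of all tested genes were. Without MI mouse 3, 0 of 22 tested collagen genes had such a p in edgeR, where 564 of 9890 tested genes were higher at it. Without MI mouse 3 the median over the collagen genes was 0.21, with the fibrillar median at 0.29 and the type IV median at -0.48. Within the batch without that mouse these medians were 0.50, 0.55 and -0.17.

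Col1a2 had the highest log2 fold change, 2.79 ± 1.05 (SE; edgeR adjusted p = 0.289), at 844 ± 1051 CPM in MI mice and 122 ± 66.7 CPM in sham vehicle mice (SD, n = 3 each). Without MI mouse 3 it was 0.95, and without sham vehicle mouse 3 it was 3.34 (adjusted p = 0.300, edgeR). Col3a1 was at 2.75 ± 1.01 (adjusted p = 0.282, edgeR). It was 1.17 without MI mouse 3 and 3.60 without sham vehicle mouse 3 (adjusted p = 0.230 for the latter, edgeR). Col1a1 was at 2.71 ± 1.23 (adjusted p = 0.362, edgeR). It was 0.28 without MI mouse 3 and 3.18 without sham vehicle mouse 3 (adjusted p = 0.403 for the latter, edgeR). Type I and III genes thus had an MI mean several times that of sham vehicle mice that rested mostly on 1 mouse. Col4a1 was at 0.03 ± 0.32 (adjusted p = 0.978, edgeR), and Col4a5 at -0.04 ± 0.27 (adjusted p = 0.966, edgeR). Leaving out sham vehicle mouse 3, Col4a1 was at -0.13 and Col4a5 at 0.09. No tested collagen gene had groups that did not overlap, beside 7.34% of all tested genes wholly higher and 7.89% wholly lower in MI mice.

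**Figure D4:**
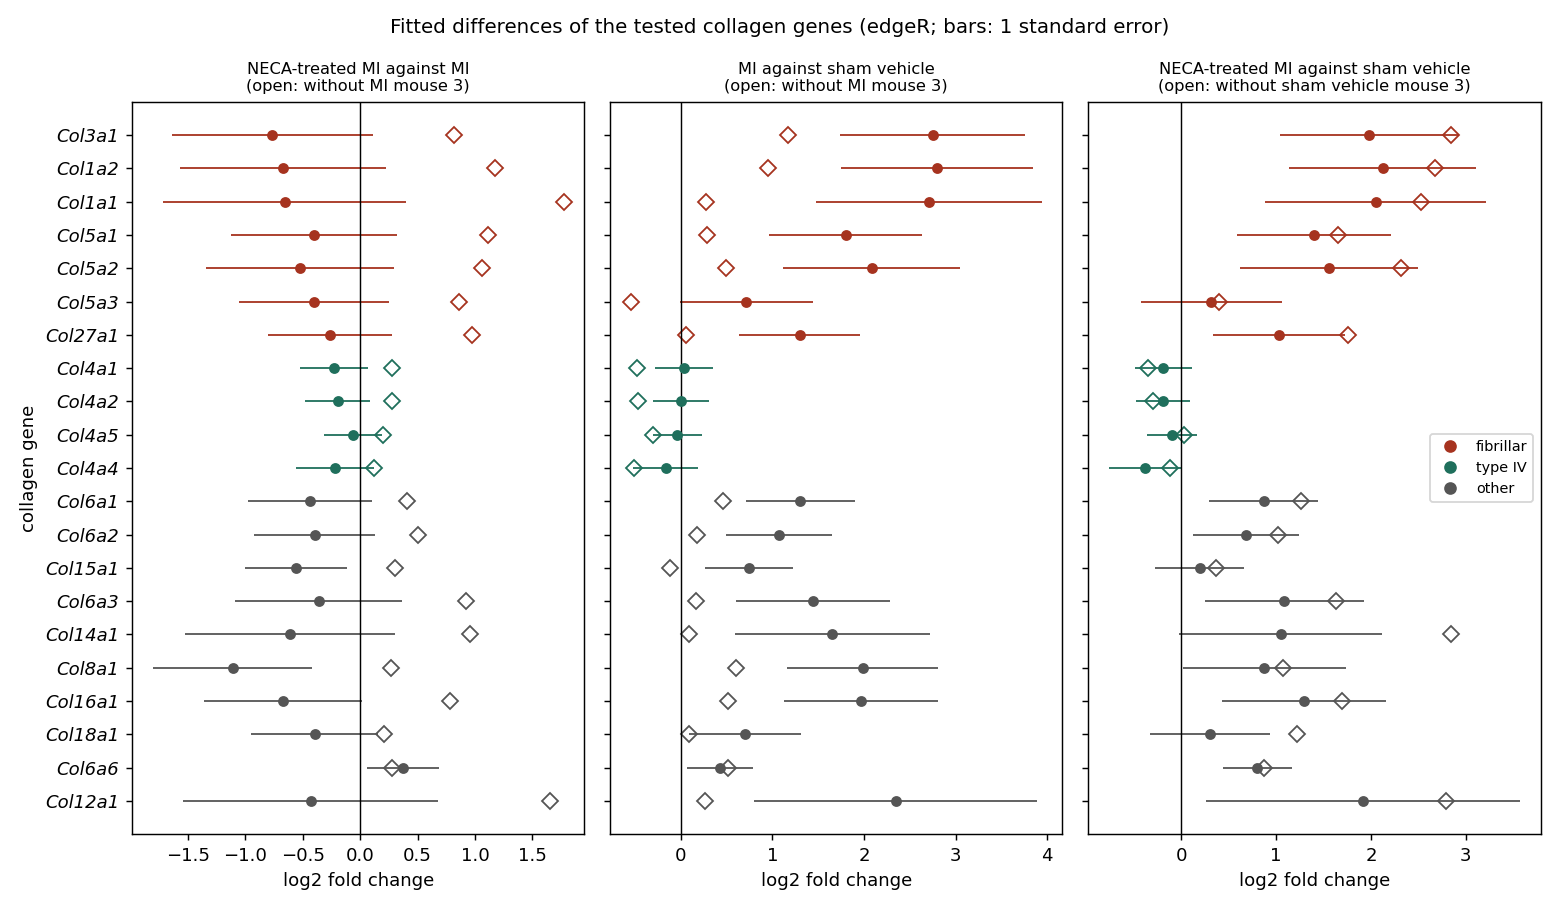
Log2 fold changes of the 21 tested collagen genes (edgeR, bars 1 SE) in the 3 comparisons, coloured by class. Filled points use all 10 mice and open diamonds leave out MI mouse 3 (left and middle) or sham vehicle mouse 3 (right). With libraries summed and without MI mouse 3, all open points of NECA-treated MI against MI lie right of 0. The open type IV points of the middle panel lie left of 0.

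NECA-treated MI mice were also set against sham vehicle mice. None of the 21 genes passed edgeR's test, nor did any of the 9688 genes (0.0%), and DESeq2 and limma called no collagen gene. Col6a6 alone had an unadjusted p under 0.05 in edgeR, at 0.80 ± 0.36 on the log2 scale (SE; adjusted p = 0.9995), where 2.26% of all tested genes were higher at that p. DESeq2 had 4 such genes, Col1a1, Col1a2, Col3a1 and Col5a1, where 1.66% of all tested genes were higher at that p in DESeq2. MI mouse 3 is in neither group but enters the shared fit. Without it, 9 of 22 tested collagen genes, 6 of 7 fibrillar, were higher at that p in edgeR. Of all 9890 genes tested there 310 were, and no collagen gene passed at the adjusted threshold. The log2 fold changes were positive for 17 of 21 genes, with a median of 0.88, by class 1.56 for fibrillar, -0.19 for type IV and 0.87 for the others. The 4 negative values were the 4 type IV genes. Without sham vehicle mouse 3 the median was 1.63.

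This comparison shares its sham vehicle mice with the one on ligation, and its collagen levels overlapped less. Col1a1, Col1a2, Col5a1 and Col16a1 were higher in all 4 NECA-treated MI mice than in all 3 sham vehicle mice, that is 4 of 21 genes, where 4.28% of all tested genes were. Within the batch the count was also 4, where 4.27% of all tested genes were. Relative to library totals without scaling the count was 3, Col5a1, Col6a6 and Col16a1 (5.17% of all tested genes). Col1a1 averaged 481 ± 315 CPM in NECA-treated MI mice (SD, n = 4) and 115 ± 56.7 CPM in sham vehicle mice (SD, n = 3), with a fitted log2 difference of 2.05 ± 1.17 (SE; adjusted p = 0.9995, edgeR). Without sham vehicle mouse 3 it was 2.53. Col1a2 was at 2.12 ± 0.99 and Col5a1 at 1.40 ± 0.81 (adjusted p = 0.9995 each, edgeR). None was lower in all NECA-treated MI mice, where 4.23% of all tested genes were.

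The genes that fold, process and bind collagen were followed beside the chains. Of 18 tested genes of collagen folding and modification, 0 passed the test in any comparison. The median log2 fold change was -0.15 in NECA-treated MI against MI mice, 0.45 in MI against sham vehicle mice (16 of 18 positive) and 0.18 in NECA-treated MI against sham vehicle mice. Leaving out MI mouse 3, it was 0.14 in NECA-treated MI against MI mice (15 of 18 positive) and 0.04 in MI against sham vehicle mice (10 of 18 positive). Sparc, a collagen-binding matricellular protein gene, was at 1.72 ± 0.66 in MI against sham vehicle mice (SE; edgeR adjusted p = 0.291), and 0.49 without MI mouse 3. Serpinh1, the collagen-specific chaperone gene, was at 0.57 ± 0.33 there (adjusted p = 0.460, edgeR), and 0.04 without that mouse. At an unadjusted p under 0.05 in edgeR, 5 of the 18 were higher in MI mice, where 7.31% of all tested genes were, and 0 of the 18 without MI mouse 3.

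Among 9 tested genes of procollagen processing and fibril crosslinking, 0 passed either way with all mice in 1 fit. The median was -0.41 in NECA-treated MI against MI mice, 1.11 in MI against sham vehicle mice (9 of 9 positive) and 0.68 in NECA-treated MI against sham vehicle mice. Leaving out MI mouse 3, it was 0.69 in NECA-treated MI against MI mice and -0.03 in MI against sham vehicle mice (3 of 9 positive). Loxl1, a lysyl oxidase family gene, was at 1.19 ± 0.68 in MI against sham vehicle mice (SE; edgeR adjusted p = 0.470), and -0.03 without MI mouse 3. Pxdn, the peroxidasin gene whose enzyme crosslinks type IV collagen, was at 0.14 ± 0.23 (adjusted p = 0.822, edgeR).

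The collagen receptor genes and the other basement membrane genes were examined too. The median in MI against sham vehicle mice was 0.39 for 5 tested receptor genes (4 positive) and 0.04 for 10 basement membrane partners of type IV collagen (6 positive), and 0 passed in any comparison. These medians were 0.16 and -0.23 without MI mouse 3, with 4 of 5 and 1 of 10 positive. Within the batch they were 0.74 and 0.15, with 4 of 5 and 9 of 10 positive. Itga1, the integrin chain that binds type IV collagen, was at 0.39 ± 0.22 (SE; edgeR adjusted p = 0.420) and its partner Itgb1 at 0.22 ± 0.17 (adjusted p = 0.593, edgeR). Hspg2, the perlecan gene, was at -0.19 ± 0.33 (adjusted p = 0.839, edgeR) and the laminin gene Lamb2 at -0.12 ± 0.23 (adjusted p = 0.846, edgeR). As with Col4a1, the summed partners were lower in MI mouse 2 with libraries summed, 923 CPM, than in its 2nd library, 1833 CPM, and 1696 to 2341 CPM in the other 9 mice. Receptor and partner medians were 0.11 and 0.06 in NECA-treated MI against MI mice (0.47 and 0.40 without MI mouse 3, -0.21 and -0.12 within the batch), and 0.52 and 0.15 in NECA-treated MI against sham vehicle mice.

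Fibroblast markers were read in the same libraries. Of 9 activated fibroblast markers all were detected, and they summed to 600, 1151, 1111 and 362 CPM in NECA-treated MI mice, 381, 212 and 2325 CPM in MI mice, and 179, 180 and 437 CPM in sham vehicle mice. MI mouse 3 was the highest and sham vehicle mouse 3 the highest of its group, as for fibrillar collagen. The 10 fibroblast markers, all detected, were 1686 to 2337 CPM in NECA-treated MI mice, 1955 to 2909 CPM in MI mice and 1307 to 2664 CPM in sham vehicle mice, with MI mouse 3 and sham vehicle mouse 3 the highest of their groups. Postn, the periostin gene of activated fibroblasts, was 195, 219, 186 and 56.3 CPM in NECA-treated MI mice, 60.8, 76.4 and 935 CPM in MI mice, and 12.8, 11.5 and 48.5 CPM in sham vehicle mice. Fn1 of that list was 255.7, 653.6, 809.6 and 198.5 CPM in NECA-treated MI mice, 211.9, 50.79 and 872 CPM in MI mice, and 34.37, 34.42 and 206.5 CPM in sham vehicle mice. Not every marker of the list followed its sum. Acta2 was 87.37, 115.2, 45.94 and 79.98 CPM in NECA-treated MI mice, 71.51, 53.53 and 117 CPM in MI mice, and 116.9, 108.2 and 127.9 CPM in sham vehicle mice. Tnc was highest in NECA-treated MI mouse 2, at 104.2 CPM against 53.14 CPM in MI mouse 3. The part of fibroblasts in the collagen values was not tested.

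Macrophage and monocyte markers summed to 513 to 779 CPM in NECA-treated MI mice, 474 to 1016 CPM in MI mice and 232 to 461 CPM in sham vehicle mice, highest in MI mouse 3. In its 2nd library MI mouse 2 had 390 CPM of these markers, under the 461 CPM of sham vehicle mouse 3. The 4 atrial muscle markers summed to 6007 CPM in sham vehicle mouse 3 and 3646 CPM in MI mouse 3, there almost wholly Nppa (3644 CPM), which ventricles also express under load, and to at most 303 CPM elsewhere. In sham vehicle mouse 3, adipocyte markers were 723 CPM, against at most 260 CPM in any other mouse, and epicardial and mesothelial markers 339 CPM, against at most 224 CPM. Skeletal muscle markers were 410 CPM in NECA-treated MI mouse 4 and at most 55.4 CPM elsewhere. Cartilage markers stayed at or under 10.4 CPM, and Matn1 was at 0 in 9 mice and 0.0704 CPM in MI mouse 2. Endothelial markers were 1275 to 1328 CPM in NECA-treated MI mice, 1368 to 1750 CPM in MI mice and 1235 to 1471 CPM in sham vehicle mice, while pericyte and smooth muscle markers were 2392 to 2598 CPM in NECA-treated MI mice, 2581 to 2917 CPM in MI mice and 1916 to 2542 CPM in sham vehicle mice. Schwann and neural markers did not exceed 36.7 CPM. The part of these cell types was not tested.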

How the data were processed

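Gene counts of 12 libraries from 10 mice were deposited as RSEM expected counts in whole numbers, made by the authors with STAR and RSEM on GRCm39 after FastQC 0.11.9, per the submitters' processing notes. The second deposited table holds log2(TPM + 1) values. The sources used here name no annotation, strand setting or molecular identifier. Symbols came from the GENCODE M21 pairing with gene IDs, and 52029 of 56647 rows matched. The libraries of MI mice 2 and 3 were summed per mouse (the 1st libraries gave 96.9% and 96.6%). Their TPM values, and the log2 values used in limma, were instead averaged over the 1st and 2nd libraries with equal weight. Genes were kept by filterByExpr and scaled by TMM in edgeR 4.0.16 (R 4.3.3), and 3 comparisons were tested in 1 quasi-likelihood fit over 10 mice, two-sided, with Benjamini-Hochberg adjustment over all tested genes and a threshold of 0.05. SEs are the log2 fold change over the square root of F. The fit was also run on simulated counts with known changes. Its recovery is not given here, so the lack of a call does not show the lack of a difference. Alternatives were other scalings, no filter, DESeq2 1.42.0, limma 3.58.1 on log2(TPM + 1) and log2(TPM + 0.1), single libraries, 2 groups alone, a replicate block, and leaving out mice. Named were the 6 fibrillar, 4 type IV and 10 other tested genes highest in mean CPM, and the 2 highest tested genes of each other list. The NECA-treated MI, MI and sham vehicle mice are separate animals by their labels. The members and lists were chosen with earlier results of these data known. Col27a1 and the untested genes named in the text fall outside that rule, as do Myl7, Matn1, Acta2, Tnc and Col8a2, which were named after their values were seen.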

Additional observations from a re-analysis of the deposited data

Results flagged for a closer look

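Col4a2 in NECA-treated MI mouse 2 was 356.6 CPM, apart from 267.9 to 273.5 CPM in the other 3 mice of its group, so the gap took up 0.936 of the group's range. Of 25 such groups examined, 1 had a mouse this far apart, and chance alone gives about 1 in 20. The value lies inside the range of the MI mice and of the sham vehicle mice for the same gene.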

How the results depend on the processing

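The settings below concern the number of genes past the threshold, the collagen median and the sign of named genes, and for each the cause was not tested. In MI against sham vehicle mice 15 genes passed, and the count was 6 with no scaling, 346 with no count filter, 7 within the batch, 0 with the 2 groups alone, 92 in DESeq2, and 0 and 1 in limma on log2(TPM + 1) and log2(TPM + 0.1). Within the batch it was 1 without MI mouse 3 and 50 without sham vehicle mouse 3, and it ran from 0 to 310 over leaving out 1 mouse each. The 15 compare with 1 gene that passed in NECA-treated MI against MI mice. The count there was 0 with no scaling, within the batch, within the batch without MI mouse 3 or sham vehicle mouse 3, and in limma at both pseudocounts, 74 with no count filter, 5 in DESeq2, and 0 to 121 without 1 mouse. The count in NECA-treated MI against sham vehicle mice was 0, and 27 with no count filter, 1 within the batch, 7 with the 2 groups alone, 4 in DESeq2, 1 in limma on log2(TPM + 0.1), 7 and 5 within the batch without MI mouse 3 or sham vehicle mouse 3, and 0 to 2 without 1 mouse. A collagen gene passed in 2 settings, both in MI against sham vehicle mice. With no count filter it was 1, Col11a1 (log2 fold change 7.78 ± 1.89, SE, edgeR adjusted p = 0.00637, from no count in the sham vehicle mice, so the size depends on the prior count). Within the batch without sham vehicle mouse 3 it was 1, Col18a1 (1.71 ± 0.37, edgeR adjusted p = 0.0383). Of the pathway genes, Lox passed in NECA-treated MI against sham vehicle mice with the 2 groups alone (1.80, edgeR adjusted p = 0.0402) and within the batch without MI mouse 3 (1.79, edgeR adjusted p = 0.0146). In MI against sham vehicle mice, Ddr2 passed within the batch without sham vehicle mouse 3 (1.19, edgeR adjusted p = 0.0435) and P4ha3 with no count filter (edgeR adjusted p = 0.0167). The collagen median in MI against sham vehicle mice ran from 0.215 (without MI mouse 3) to 2.018 without 1 mouse, and was 0.501 within the batch without MI mouse 3. It ran in NECA-treated MI against MI mice from -0.857 to 0.646, and was 0.402 within the batch without MI mouse 3. In NECA-treated MI against sham vehicle mice it ran from 0.678 to 1.63, and was 1.637 within the batch without sham vehicle mouse 3.

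Same-numbered mice correlated between -0.248 and 0.199 in their deviations from the group means, so the numbers were not used as pairs. With a replicate block 6, 0 and 1 genes passed in MI against sham vehicle, NECA-treated MI against MI and NECA-treated MI against sham vehicle mice. With the replicate block the sign of the log2 fold change turned in MI against sham vehicle mice for Col4a1 (-0.039) and Col4a2 (-0.0538), and in NECA-treated MI against MI mice for Col3a1 (0.21), Col1a2 (0.29), Col1a1 (0.5), Col5a1 (0.22), Col5a2 (0.35), Col5a3 (0.16), Col6a2 (0.0291), Col6a3 (0.27), Col14a1 (0.38) and Col12a1 (0.74).

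Further signs turned under other scalings, tools, choices of library or sets of mice. In MI against sham vehicle mice, Col4a2 was -0.0014 with RLE scaling, -0.0008 with the 1st libraries alone and -0.0015 in DESeq2, and Col4a5 was 0.0997 with no scaling, 0.0058 within the batch and 0.13 in limma at both pseudocounts. Within the batch without MI mouse 3, Col5a3 was -0.48, Col4a1 -0.17, Col4a2 -0.18 and Col8a1 -0.11. Within the batch without sham vehicle mouse 3, Col4a1 was -0.0447, Col4a2 -0.0308, Col4a5 0.14 and Col4a4 0.0478, and Col4a5 was 0.0269 in NECA-treated MI against sham vehicle mice. For NECA-treated MI against MI mice limma gave Col1a1 0.25 and 0.27, Col5a1 0.0138 and 0.0384, and Col6a3 0.0235 and 0.0333 on log2(TPM + 1) and log2(TPM + 0.1), and Col12a1 0.32 on log2(TPM + 0.1). In that comparison, within the batch without MI mouse 3, Col3a1 was 0.77, Col1a2 1.12, Col1a1 1.53, Col5a1 0.85, Col5a2 1.05, Col5a3 0.8, Col4a5 0.0109, Col6a1 0.14, Col6a2 0.18, Col6a3 0.48, Col14a1 0.73, Col8a1 0.98, Col16a1 0.78, Col12a1 1.6 and Col6a6 -0.21.

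Leaving out 1 mouse each, these ranges crossed 0. In NECA-treated MI against MI mice they were, lowest to highest, Col3a1 -1.25 to 0.82, Col1a2 -1.16 to 1.17, Col1a1 -1.2 to 1.77, Col5a1 -0.87 to 1.11, Col5a2 -0.99 to 1.06, Col5a3 -0.89 to 0.86, Col4a1 -0.56 to 0.28, Col4a2 -0.53 to 0.28, Col4a4 -0.43 to 0.12, Col4a5 -0.4 to 0.2, Col6a1 -0.85 to 0.41, Col6a2 -0.81 to 0.5, Col15a1 -0.92 to 0.31, Col6a3 -0.9 to 0.92, Col14a1 -1.12 to 0.96, Col8a1 -1.51 to 0.27, Col16a1 -1.17 to 0.78, Col18a1 -0.86 to 0.21 and Col12a1 -0.98 to 1.65. In MI against sham vehicle mice they were Col4a5 -0.3 to 0.3, Col4a4 -0.51 to 0.0993, Col5a3 -0.55 to 1.21, Col4a1 -0.48 to 0.37, Col4a2 -0.47 to 0.34 and Col15a1 -0.12 to 1.11. In NECA-treated MI against sham vehicle mice they were Col5a3 -0.13 to 0.55, Col18a1 -0.0326 to 1.22 and Col4a5 -0.17 to 0.028. In the smaller libraries 1 count is about 1 CPM, which limits what can be said of genes under a few CPM.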
